A study of Mus musculus with 4 samples.

Results

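The genes of the elastic fibre and its microfibril scaffold were compared between Ip6k1-/- and Ip6k1+/+ mouse embryonic fibroblasts (MEFs). The 10 genes were chosen by name, as elastin (Eln), the fibrillins Fbn1 and Fbn2, the fibulins Fbln1, Fbln2, Fbln5 and Efemp2 (fibulin-4), and the microfibril-associated proteins Mfap2, Mfap4 and Mfap5. They were represented by 15 probes, out of 41174 probes for 27827 gene names on the array. Most of these genes differed at least as much between lines of 1 genotype as between the genotypes. No member passed a test across all probes, Mfap4 was lower in both Ip6k1-/- MEF lines than the Ip6k1+/+ mean, and Mfap5 and Eln were well above background in only 1 line of each genotype.

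Elastic fibres give skin, lung and arteries their recoil, and they consist of a core of crosslinked elastin laid down on a sheath of fibrillin microfibrils. Fibroblasts and smooth muscle cells secrete tropoelastin, which fibulins gather into globules and hand to the microfibrils, where lysyl oxidases crosslink it. Microfibrils also hold latent TGF-beta and BMP in the matrix, and microfibril-associated glycoproteins bind both the fibrillins and these growth factors.

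IP6K1 is an inositol hexakisphosphate kinase that makes the inositol pyrophosphate 5-IP7, and the study asked which transcripts change in fibroblasts without it. The 4 MEF lines, 2 Ip6k1+/+ and 2 Ip6k1-/-, came from E14 embryos of 1 pair of heterozygous parents, were immortalised with SV40 large T antigen and were harvested untreated during growth in culture after 2 passages. Total RNA of each line was labelled with Cy3 and hybridised to 1 single-colour Agilent array. Each line stands for 1 embryo, so that genotype was compared over 2 lines against 2, and differences among embryos, immortalisation and passage of a line cannot be told apart. Lines are numbered 1 and 2 within each genotype as in the labels, which do not say that lines of the same number have anything in common.

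All levels below are log2 signals relative to the 75th percentile of the line's array, and all differences are Ip6k1-/- minus Ip6k1+/+ on this scale. All 4 arrays lay on 1 slide, had 75th percentile signals of 610 to 747 and measured 52.0% to 55.5% of probes well above background. Of the 3 Ip6k1 probes, A_51_P213766 and A_52_P413035 were well above background only in the Ip6k1+/+ lines, where they were at least 34.0-fold and 32.7-fold higher (limma, adjusted p = 0.0354 for each). The third, A_51_P103718, was well above background in all 4 lines, with a difference of -4.13 (SE 0.33) that did not pass (limma adjusted p = 0.367). The fibroblast label was checked on 12 markers, of which 10 were well above background in every line, while Lum was so in 3 lines and Fap in 1 line. Of 6 endothelial markers 5 were well above background in no line and Kdr was so in all 4. Of 6 skeletal muscle markers 4, among them Myod1 and Myog, were so in no line and the actins Acta1 and Actc1 in all 4. Of 6 macrophage and blood markers Ptprc and Adgre1 were so in no line, and Cd34 and Cd68 in all 4. Csf1r was so in 1 line and the haemoglobin gene Hbb-b1 in 3 lines, each on 1 of its probes.

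Elastin, the rubber-like core protein, was measured in 1 line of each genotype. Its probe A_52_P609972, at chr5:135179129-135179188 (mm9, minus strand), gave a level of -1.37 in Ip6k1+/+ line 1, -4.99 in Ip6k1+/+ line 2, -3.48 in Ip6k1-/- line 1 and -5.18 in Ip6k1-/- line 2. Both lines numbered 1 were well above background and both lines numbered 2 were not, so the genotypes overlapped. The signal of Ip6k1+/+ line 1 was at least 12.3-fold that of Ip6k1+/+ line 2, and the signal of Ip6k1-/- line 1 was at least 2.29-fold that of Ip6k1-/- line 2. These are bounds, taken against the higher of the dim probe's own signal and the lowest signal that was well above background on that array. Since a probe had to be well above background in both lines of a genotype to be tested, Eln was not tested, nor was Mfap5. Of the lines that measured Eln, the Ip6k1+/+ line was 4.32-fold above the Ip6k1-/- line.

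**Figure D1:**
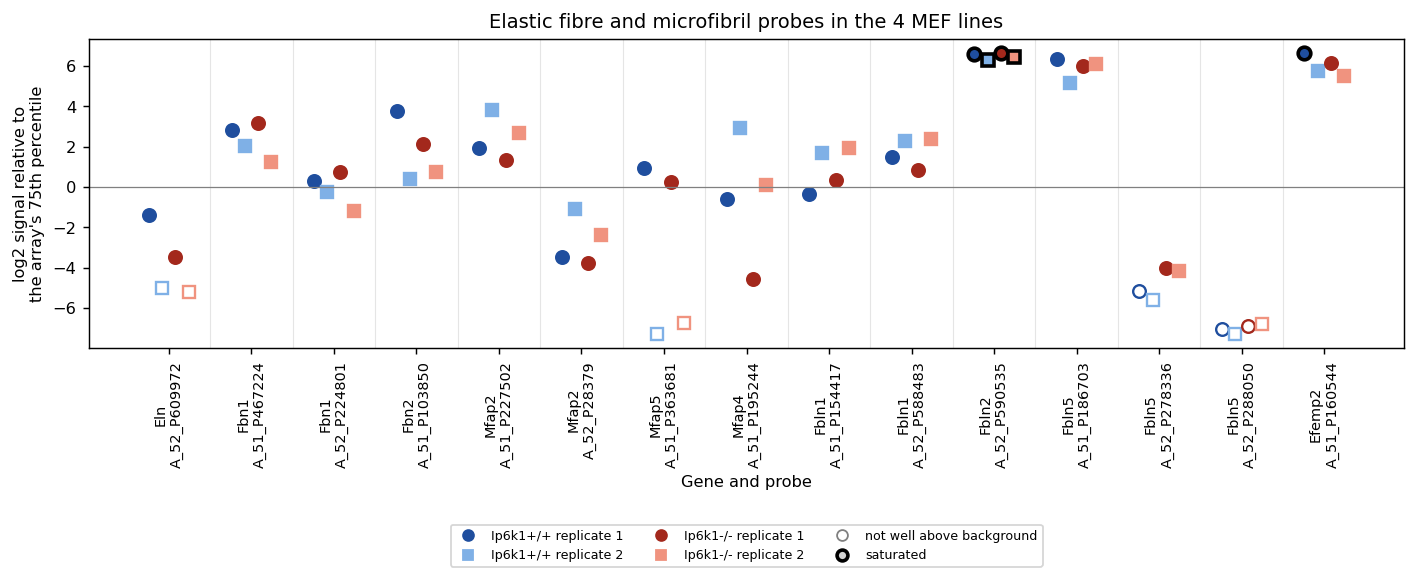
Level of each member probe in the 4 MEF lines, as log2 signal relative to the array's 75th percentile (vertical axis), with genes ordered by role. Open symbols are not well above background and thick black outlines are saturated; for Eln and Mfap5 the circles (lines numbered 1) lie above the squares (lines numbered 2) in both genotypes, and for Mfap2, Mfap4 and Fbln1 below them.

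The fibrillins are the large glycoproteins whose end-to-end polymers form the microfibril, Fbn1 in tissues of all ages and Fbn2 mainly in the embryo. For Fbn1, the probe A_51_P467224 (chr2:125126727-125126786, mm9) gave 2.85 and 2.03 in Ip6k1+/+ lines 1 and 2, and 3.17 and 1.26 in Ip6k1-/- lines 1 and 2. The highest and the lowest value both belonged to Ip6k1-/- lines, which differed 3.75-fold from each other, against 1.77-fold between the Ip6k1+/+ lines. The second Fbn1 probe, A_52_P224801, placed the 4 lines in the same order, at 0.28, -0.22, 0.78 and -1.18. Neither probe differed by genotype beyond the spread of the lines, with differences of -0.23 for each (SE 0.70, adjusted p = 0.993 in limma for each).

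For Fbn2, probe A_51_P103850 gave 3.79 and 0.42 in Ip6k1+/+ lines 1 and 2, and 2.12 and 0.73 in Ip6k1-/- lines 1 and 2. As for Eln, line 1 was the higher one in both genotypes, by 10.3-fold in Ip6k1+/+ and 2.61-fold in Ip6k1-/- MEFs. Over all tested probes, the deviations of same-number lines from their genotype means correlated at r = 0.48. An order of lines shared by both genotypes is therefore not particular to the genes named here. Both Ip6k1-/- lines lay between the Ip6k1+/+ lines, and the genotype difference was -0.68 (SE 1.20, limma adjusted p = 0.993).

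Mfap2 and Mfap5, also called MAGP-1 and MAGP-2, are the small glycoproteins that decorate fibrillin microfibrils. The 2 Mfap2 probes were well above background in every line, and A_51_P227502 (chr4:140571814-140571873, mm9) gave 1.92 and 3.84 in Ip6k1+/+ lines 1 and 2, and 1.33 and 2.66 in Ip6k1-/- lines 1 and 2. Here line 2 was the higher one in both genotypes, by 3.78-fold in Ip6k1+/+ and 2.52-fold in Ip6k1-/- MEFs. Probe A_52_P28379, near the start of the transcript, ordered the lines alike, at -3.46, -1.09, -3.75 and -2.39. The genotypes overlapped for both probes, and the differences of the genotype means were -0.88 (SE 0.78) and -0.80 (SE 0.94), with adjusted p = 0.993 for each in limma.

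Mfap5 had the widest difference between lines of 1 genotype among the members. Probe A_51_P363681 (chr6:122478938-122478997, mm9) gave 0.96 and -7.26 in Ip6k1+/+ lines 1 and 2, and 0.27 and -6.74 in Ip6k1-/- lines 1 and 2. Both lines numbered 1 expressed the gene well above background and both lines numbered 2 did not, with line 1 at least 70.5-fold above line 2 in Ip6k1+/+ and at least 30.8-fold above it in Ip6k1-/- MEFs. Of the lines that measured Mfap5, the Ip6k1+/+ line was 1.62-fold above the Ip6k1-/- line.

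Mfap4 is a fibrinogen-related glycoprotein that binds tropoelastin and fibrillin, and it had the largest genotype difference among the members. Probe A_51_P195244 (chr11:61302096-61302155, mm9) gave -0.60 and 2.92 in Ip6k1+/+ lines 1 and 2, and -4.53 and 0.09 in Ip6k1-/- lines 1 and 2. Both Ip6k1-/- lines lay below the Ip6k1+/+ mean, by differences of -5.69 and -1.07, but Ip6k1-/- line 2 lay above Ip6k1+/+ line 1, so the genotypes overlapped. The difference of the means was -3.38 (SE 1.90, 95% interval -8.36 to 1.60), a 10.4-fold lower level in Ip6k1-/- MEFs that did not pass the test (limma adjusted p = 0.993). Within a genotype, line 2 was higher by 11.4-fold in Ip6k1+/+ and 24.7-fold in Ip6k1-/- MEFs, as it was for Mfap2. Without Ip6k1-/- line 1 the difference was -1.07 and without Ip6k1-/- line 2 it was -5.69. The level in Ip6k1-/- line 1 was close to the lowest level that was well above background on that array, -4.75. With another background correction (normexp) and all 4 lines the difference was -2.87.

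The genes whose pattern was most like that of Mfap4 were sought among 19953 probes well above background on all 4 arrays, by the Euclidean distance between the 4 log2 values after each probe was centred on its mean. The nearest were Fibin (fin bud initiation factor) at a distance of 1.20, 1810023F06Rik at 1.23, Pdzrn3 at 1.42, the heparin-binding growth factor Ptn (pleiotrophin) at 1.65 and the imprinted noncoding transcript Meg3 at 1.87. For Ptn the levels were 3.28 and 6.03 in Ip6k1+/+ lines 1 and 2, and -0.68 and 5.48 in Ip6k1-/- lines 1 and 2, so that it shared with Mfap4 a low Ip6k1-/- line 1. With 4 arrays such likeness is a description.

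**Figure D2:**
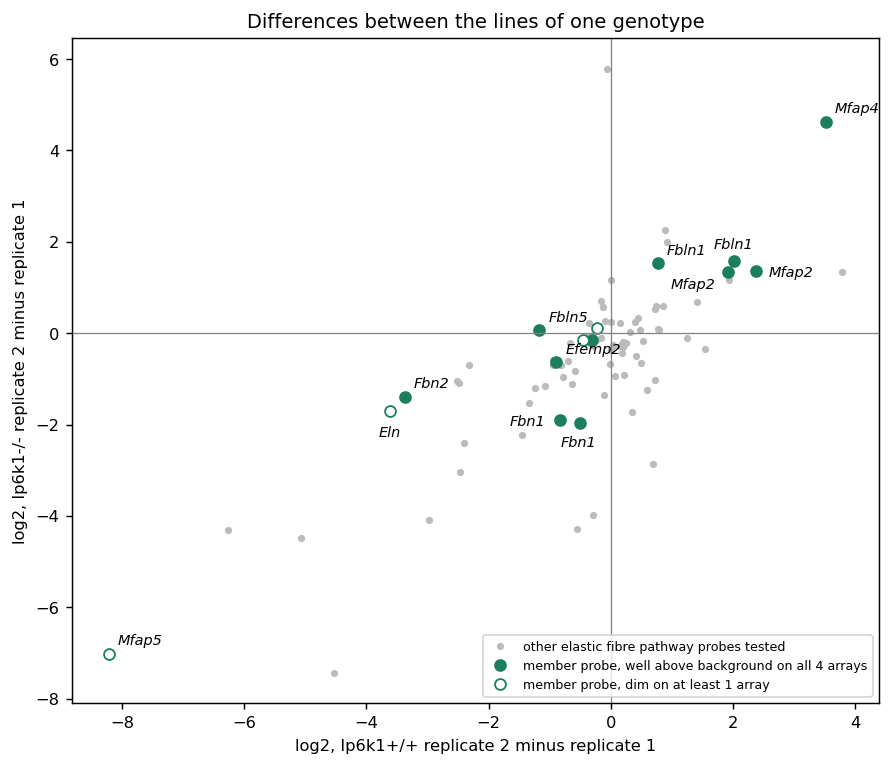
Line 2 minus line 1 (log2) within Ip6k1+/+ MEFs on the horizontal axis and within Ip6k1-/- MEFs on the vertical axis, for the member probes (green; open where dim on at least 1 array, where the value is not a measured difference) and the other elastic fibre pathway probes that were tested (grey); the unlabelled green points near 0 are Fbln2 and the dim Fbln5 probes. Mfap5, Eln and Fbn2 lie far to the lower left, and Mfap4, both Mfap2 probes and both Fbln1 probes to the upper right.

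Mfap2, Fbn1 and Fbln1 are examples of members that differed between lines of 1 genotype, and a start region of each is shown for reference. It is the 250 bases upstream of 1 RefSeq transcript start (GRCm38.p6, 5′ to 3′ on the gene's strand). Capitals mark the GC box (GGGCGG), searched on both strands. The TATA box (TATAAA) was searched in the same way. So were the CCAAT box, under its own letters, and the AP-1 site (TGACTCA). The Mfap2 window is chr4:141010431-141010680 (plus strand), the Fbn1 window chr2:125506439-125506688 (minus strand) and the Fbln1 window chr15:85205699-85205948 (plus strand).
Mfap2: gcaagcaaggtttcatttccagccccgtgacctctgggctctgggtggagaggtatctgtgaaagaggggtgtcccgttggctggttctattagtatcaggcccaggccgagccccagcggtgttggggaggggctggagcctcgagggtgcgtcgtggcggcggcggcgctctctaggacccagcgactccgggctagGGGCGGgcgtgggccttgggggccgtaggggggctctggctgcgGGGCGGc
Fbn1: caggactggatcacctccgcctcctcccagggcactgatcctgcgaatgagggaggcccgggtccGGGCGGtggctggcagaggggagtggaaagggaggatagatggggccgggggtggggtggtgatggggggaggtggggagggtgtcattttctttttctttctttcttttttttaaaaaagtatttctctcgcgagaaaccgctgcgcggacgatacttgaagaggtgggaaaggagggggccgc
Fbln1: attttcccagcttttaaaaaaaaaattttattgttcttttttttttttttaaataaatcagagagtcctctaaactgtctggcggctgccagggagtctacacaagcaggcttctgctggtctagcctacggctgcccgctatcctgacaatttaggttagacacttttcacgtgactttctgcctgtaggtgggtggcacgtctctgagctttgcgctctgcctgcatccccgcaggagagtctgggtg

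The Mfap2 window shown held 2 GC boxes and 68.8% G and C, the Fbn1 window 1 GC box and 59.2%, and the Fbln1 window shown none of the 4 motifs and 46.4%, beside a median of 52.4% over 32851 windows of the same length. Mfap2 and Fbln1 each have another RefSeq window, which is not shown. That of Mfap2 held no GC box, 1 CCAAT box and 51.2% G and C, and that of Fbln1 held 1 GC box and 62.4%. RefSeq windows were matched for 6 of the 9 members looked for, 11 windows in all because some genes have several starts, which can overlap. A GC box stood in 8 of these 11 windows, beside 32.7% of all windows. Each of the 6 genes had it in at least 1 window, a count for which no share over all genes was taken. The CCAAT box stood in 2 of the 11 (33.8% of all), and the TATA box and the AP-1 site in 0 (12.4% and 4.46% of all). A match is no evidence of a bound factor, and the absence of one says only that these letters are not in the window. Those without an entry were Eln, Mfap4 and Mfap5, and Fbn2 was not looked for.

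The fibulins link tropoelastin to microfibrils and to the crosslinking enzymes. Fbln5, which mice need to form elastic fibres, was read by 3 probes of 60 bases that disagreed, and the first 30 bases of each are shown because the finding depends on which is read.
A_51_P186703: gcccagtttttacgaagaccccttaatcat
A_52_P278336: agacaaaactagaacatgacctcttttagt
A_52_P288050: ctcccagaaagttaaattcctagatagtca

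The bright probe A_51_P186703 (chr12:102988189-102988248, mm9) gave 6.34 and 5.17 in Ip6k1+/+ lines 1 and 2, and 6.02 and 6.09 in Ip6k1-/- lines 1 and 2. Both Ip6k1-/- lines lay between the Ip6k1+/+ lines, with a difference of 0.30 (SE 0.41, 95% interval -0.77 to 1.38). Probe A_52_P278336, further 3′ at chr12:102984878-102984937, gave -5.14 and -5.59 in the Ip6k1+/+ lines, where it was not well above background, and -4.03 and -4.17 in the Ip6k1-/- lines, where it was. It was thus at least 1.95-fold higher in Ip6k1-/- MEFs. The test used the dim Ip6k1+/+ values as read and not this bound. The difference so obtained was 1.27 (SE 0.36) and did not pass (limma adjusted p = 0.993). The probe entered the test only through the Ip6k1-/- lines, where it was the brighter, so its direction was fixed by the filter and is no further evidence. The third probe, A_52_P288050, never rose well above background.

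Fbln1, a fibulin of basement membranes and elastic fibres, was higher in line 2 than in line 1 of each genotype, as Mfap2 was. Probe A_51_P154417 (chr15:85115854-85115914, mm9) gave -0.32 and 1.69 in Ip6k1+/+ lines 1 and 2, and 0.37 and 1.94 in Ip6k1-/- lines 1 and 2, and A_52_P588483 gave 1.51 and 2.28 in Ip6k1+/+ lines 1 and 2, and 0.84 and 2.37 in Ip6k1-/- lines 1 and 2. The lines numbered 2 were above those numbered 1 by 4.04-fold and 1.71-fold in Ip6k1+/+ and by 2.97-fold and 2.90-fold in Ip6k1-/- MEFs. The genotype differences had opposite signs, 0.48 (SE 0.86) and -0.29 (SE 0.59), and neither exceeded the spread of the lines.

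Efemp2, or fibulin-4, which brings lysyl oxidase to tropoelastin, was strongly expressed in every line. Probe A_51_P160544 (chr19:5481762-5481821, mm9) gave 6.66 (a saturated spot) and 5.77 in Ip6k1+/+ lines 1 and 2, and 6.14 and 5.51 in Ip6k1-/- lines 1 and 2. The Ip6k1-/- lines lay on either side of Ip6k1+/+ line 2, and the difference was -0.40 (SE 0.39, limma adjusted p = 0.993). Fbln2, a fibulin that binds both elastin and fibrillin-1, was saturated in all 4 lines (probe A_52_P590535, levels of 6.32 to 6.63), so that a difference between the genotypes could not be measured.

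Counted together, 12 probes of 8 members could be tested, of which 11 were well above background on all 4 arrays. These 12 include the saturated Fbln2 probe and the Fbln5 probe dim in Ip6k1+/+ MEFs. Their median difference was -0.26, with 4 probes higher and 8 lower in Ip6k1-/- MEFs, and over the 10 probes without these exceptions it was -0.34, with 2 higher and 8 lower, beside a median of 0.05 over all 21571 tested probes, of which 43.5% were lower. By limma, 0 member probes had an adjusted p up to 0.05 and 1 had an unadjusted p under 0.05, beside 0.0139% of all tested probes called lower, 0% called higher and 3.34% under that unadjusted p. The fold rule required means to differ by 1 or more on the log2 scale and both Ip6k1-/- lines to lie 0.9 or more to that side of the Ip6k1+/+ mean. It named 1 member probe lower (Mfap4) and 1 higher (Fbln5 A_52_P278336), beside 1.87% and 1.06% of all tested probes. The higher call rests on Ip6k1+/+ values not well above background, and the bound for that probe, 1.95-fold, is under 2-fold. The genotypes did not overlap for 1 member probe, with the Ip6k1-/- lines above (18.8% of all tested probes), and for 0 with them below (12.6% of all). The unadjusted p under 0.05, the higher call and the probe without overlap were all Fbln5 A_52_P278336, and among the 10 other probes these counts were 0. Over all tested probes the median size of the difference between the 2 Ip6k1+/+ lines was 0.36 and between the 2 Ip6k1-/- lines 0.31, and the median limma standard error was 0.32, beside standard errors of 0.19 to 1.90 for the member probes.

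**Figure D3:**
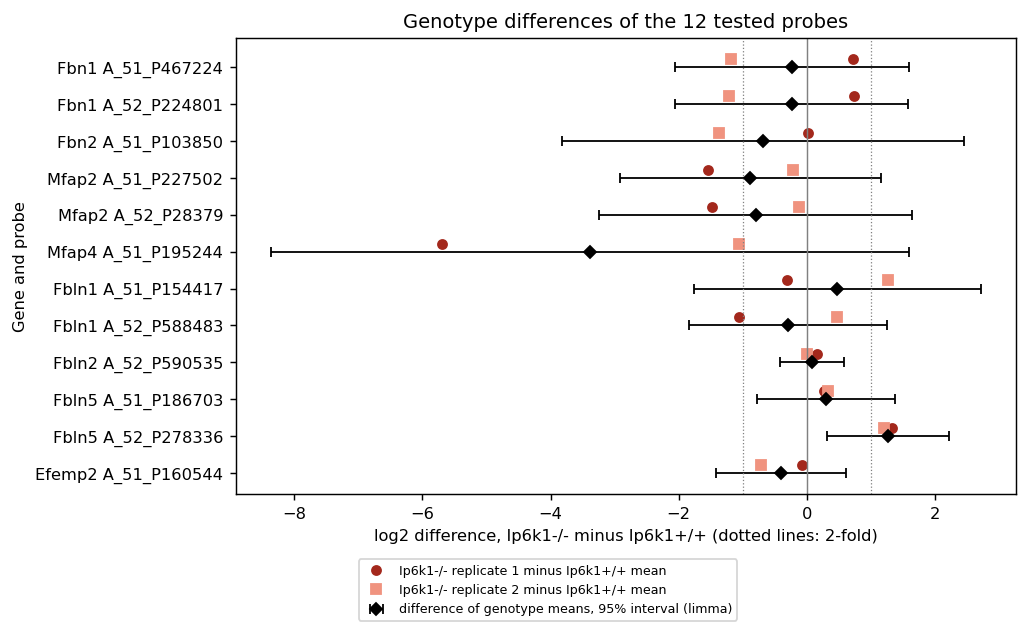
Log2 difference between Ip6k1-/- and Ip6k1+/+ MEFs for the 12 tested member probes, as the difference of the means with its 95% interval from limma (black) and as each Ip6k1-/- line minus the Ip6k1+/+ mean (red); dotted lines mark 2-fold. The 2 Ip6k1-/- lines lie on the same side of 0 by at least 0.9 only for Mfap4 and for Fbln5 A_52_P278336, which was not well above background in Ip6k1+/+ MEFs, and Fbln2 is saturated in all lines.

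Leaving out 1 line at a time changed the sign of the difference for 9 of the 10 member probes measured in every line without saturation throughout. The exception was Mfap4, at -5.69 to -1.07. These ends are each Ip6k1-/- line against the Ip6k1+/+ mean, whose sign the fold rule had already required. Without Ip6k1+/+ line 2, Ip6k1-/- line 2 lay 0.69 above the remaining Ip6k1+/+ line, so Mfap4 did not pass the rule. For Fbn2 the difference was 1.01 without Ip6k1+/+ line 1 and -2.36 without Ip6k1+/+ line 2, and for Fbn1 A_51_P467224 it was -1.18 without Ip6k1-/- line 1 and 0.73 without Ip6k1-/- line 2. The median over the member probes moved between -0.38 and 0.03. How many of all tested probes change sign was not counted, so these sign changes are not shown to be particular to the members.

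**Figure D4:**
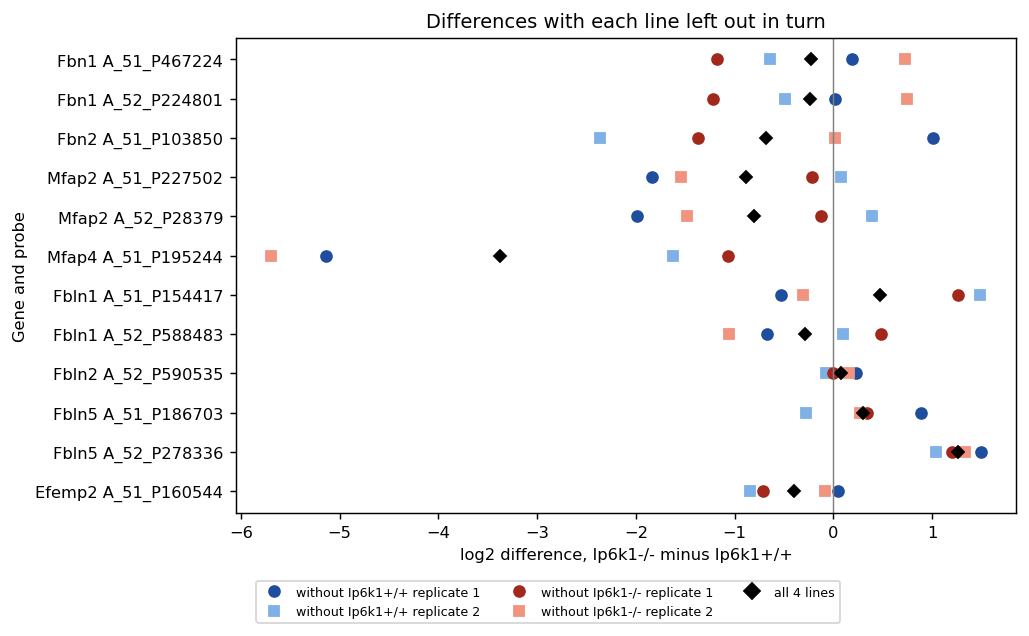
Log2 difference between Ip6k1-/- and Ip6k1+/+ MEFs for each tested member probe with all 4 lines (black diamond) and with each line left out in turn (coloured symbols named in the key). Mfap4 stays to the left of 0 and Fbln5 A_52_P278336, dim in Ip6k1+/+ MEFs and tested only because it was brighter in Ip6k1-/- MEFs, to the right, while the symbols of the other 10 probes, the saturated Fbln2 among them, lie on both sides.

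Some markers of other cell types moved with the same lines. The summed signal of the 12 fibroblast markers themselves was 591, 540, 542 and 498 in Ip6k1+/+ lines 1 and 2 and Ip6k1-/- lines 1 and 2, with Dcn and Pdgfrb (difference -1.20, SE 0.19) past the fold rule downwards. Of that sum 64.1% to 77.5% came from Col1a1, Col1a2, S100a4 and Vim, whose probes were saturated in 3 or 4 lines. The summed signal of 6 chondrocyte markers (linear, relative to the 75th percentile, as all these sums) was 10.9 and 2.80 in Ip6k1+/+ lines 1 and 2, and 5.17 and 0.442 in Ip6k1-/- lines 1 and 2, and so was higher in line 1 of each genotype, as Eln, Fbn2 and Mfap5 were. The genotypes overlapped in this sum, and Col2a1 (difference -2.65, SE 1.29) was past the fold rule downwards. Of these markers 4 were well above background in every line, Matn1 was so in none, and Comp, a cartilage matrix protein that tendon and skin fibroblasts also make, gave 1.00, -3.34, 1.24 and -3.53 in the same order of lines. The summed signal of 6 epithelial markers was 0.754 and 3.15 in Ip6k1+/+ lines 1 and 2, and 0.513 and 1.59 in Ip6k1-/- lines 1 and 2, and so was higher in line 2 of each genotype, as Mfap2, Mfap4 and Fbln1 were. It came mainly from the keratin Krt18, the 1 marker of the 6 that was well above background in every line, while Cdh1 and Krt14 were so in none. The summed signal of 6 smooth muscle markers was 329 and 207 in Ip6k1+/+ lines 1 and 2, and 280 and 240 in Ip6k1-/- lines 1 and 2, with the probes of Acta2 and Tagln that enter it saturated throughout and Des not well above background. The Acta2 probes well above background in every line and never saturated differed by -0.23 (A_51_P450957), -0.52 (A_52_P210078) and -0.78 (A_52_P239556), the latter pair with the Ip6k1-/- lines below. The unsaturated Tagln probe differed by -0.10, and the Acta2 probe A_52_P644232 was well above background in no line. The sum of 6 adipocyte markers, 5.13, 2.44, 3.30 and 4.39, did not follow the line number. Among them Fabp4, the fatty acid carrier, was higher in line 1 (1.56, -3.91, 1.54 and -4.10), the lipase Lpl was higher in line 2 (-2.70, 1.04, -7.06 and 1.93), Pparg gave 0.99, -1.76, -1.50 and -1.03, and Adipoq, Plin1 and Cfd were well above background in no line. The sum for 6 macrophage and blood markers was lower in both Ip6k1-/- lines, as the mean of Mfap4 was, at 2.45 and 3.22 against 6.36 and 13.3. Nearly all of it was Cd34, which fibroblasts also express, at 2.08 and 2.97 against 6.14 and 13.1 (difference -1.85, SE 0.43, limma adjusted p = 0.993), while the macrophage marker Cd68 was higher in both Ip6k1-/- lines (difference 0.68, SE 0.40). The endothelial receptor Kdr was higher in both as well (difference 1.56, SE 0.55), with the other 5 endothelial markers not well above background. The summed signal of 6 skeletal muscle markers was also lower in both Ip6k1-/- lines, at 28.0 and 26.6 against 45.5 and 29.9. It came mainly from the actins Acta1 and Actc1. The part of these cell types in the members' levels was not tested, and in bulk RNA fewer cells of a type and less RNA per cell cannot be told apart.

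The other genes of elastic fibre assembly were taken from a list of 67 genes, of which 65 were on the array and 51, with 74 probes, could be tested. Their median difference was -0.22, with 24 probes higher and 50 lower, beside a median of 0.05 over all tested probes, of which 43.5% were lower. The 74 include probes dim in some lines, and a Ltbp2 probe saturated in both lines numbered 1. In limma 0 of these probes had an adjusted p up to 0.05 and 1, for Dcn, had an unadjusted p under 0.05. Of all tested probes 3.34% were under that unadjusted p. The fold rule named 2 of the 74 probes lower and 1 higher, beside 1.87% and 1.06% of all tested probes. The genotypes did not overlap for 10 of the 74 with Ip6k1-/- below and for 9 with it above, beside 12.6% and 18.8% of all. By role, the medians were -0.28 for 24 probes of assembly and associated glycoproteins, -0.15 for 7 of crosslinking enzymes, -0.15 for 8 of ADAMTS and ADAMTS-like proteins, -0.23 for 12 of receptors, -0.27 for 5 of bound growth factors, -0.05 for 11 of processing and trafficking, and -0.30 for 7 of proteases.

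Dcn encodes decorin, a small proteoglycan that binds collagen and microfibrils. Its level was 0.99 and 1.89 in Ip6k1+/+ lines 1 and 2, and -2.09 and 0.18 in Ip6k1-/- lines 1 and 2 (probe A_51_P334104), so that the genotypes did not overlap, and the difference was -2.40 (SE 0.82, unadjusted p = 0.035, adjusted p = 0.993 in limma). Like Mfap4, Dcn was lowest in Ip6k1-/- line 1. Adamtsl4, a fibrillin-binding protein, was at -0.33 in Ip6k1+/+ line 1 and between -3.18 and -2.50 in the other lines, with a difference of -1.35 (SE 0.84). Mfap3l, a membrane protein that shares its family name with the microfibril proteins, was the gene with a probe past the rule upwards, at -4.03 and -2.49 in Ip6k1+/+ lines 1 and 2, and -1.87 and -2.21 in Ip6k1-/- lines 1 and 2 (A_52_P474266, difference 1.22, SE 0.59), and its probe A_51_P219166 differed by 0.93 (SE 0.51).

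Within the roles, the largest differences among probes measured on all 4 arrays often came from 1 line. Efemp1, or fibulin-3, was at 3.66, 3.61 and 3.25 in the other lines and at -2.55 in Ip6k1-/- line 1, with a difference of -3.29 (SE 1.89). Mmp2, a gelatinase that cuts elastin and fibrillin, was at 3.60, 3.05 and 3.24 in the other lines and at -1.04 in Ip6k1-/- line 2, with a difference of -2.22 (SE 1.42). The integrin subunit Itgb3, which pairs with the alpha-v chain to bind fibrillin-1, was likewise lowest in Ip6k1-/- line 2, at -0.70 against 1.20 to 2.17 in the others (A_52_P553890, difference -0.81, SE 0.98), and its other probe differed by -0.35 (SE 0.43).

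The crosslinking enzyme Loxl2 had the line order of Mfap2, with 3.22 and 5.16 in Ip6k1+/+ lines 1 and 2, and 2.58 and 3.74 in Ip6k1-/- lines 1 and 2 (A_52_P480351, difference -1.03, SE 0.75), and its other probe differed by -0.15 (SE 1.32). The growth factor Tgfb3 was higher in line 1 of each genotype, with 4.86 and 3.40 in Ip6k1+/+ lines 1 and 2, and 5.97 and 3.75 in Ip6k1-/- lines 1 and 2 (difference 0.73, SE 0.88). The proprotein convertase Pcsk6 had the line order of Fbn2 with a wider spread, at 4.87 and -1.39 in Ip6k1+/+ lines 1 and 2, and 3.49 and -0.81 in Ip6k1-/- lines 1 and 2 (difference -0.40, SE 2.47). Ltbp2, a latent TGF-beta binding protein family member that associates with Fbln5, was named after its values were seen, and was saturated in both lines numbered 1 at 6.68 and lower in both lines numbered 2, at 3.71 in Ip6k1+/+ and 2.60 in Ip6k1-/-.

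**Figure D5:**
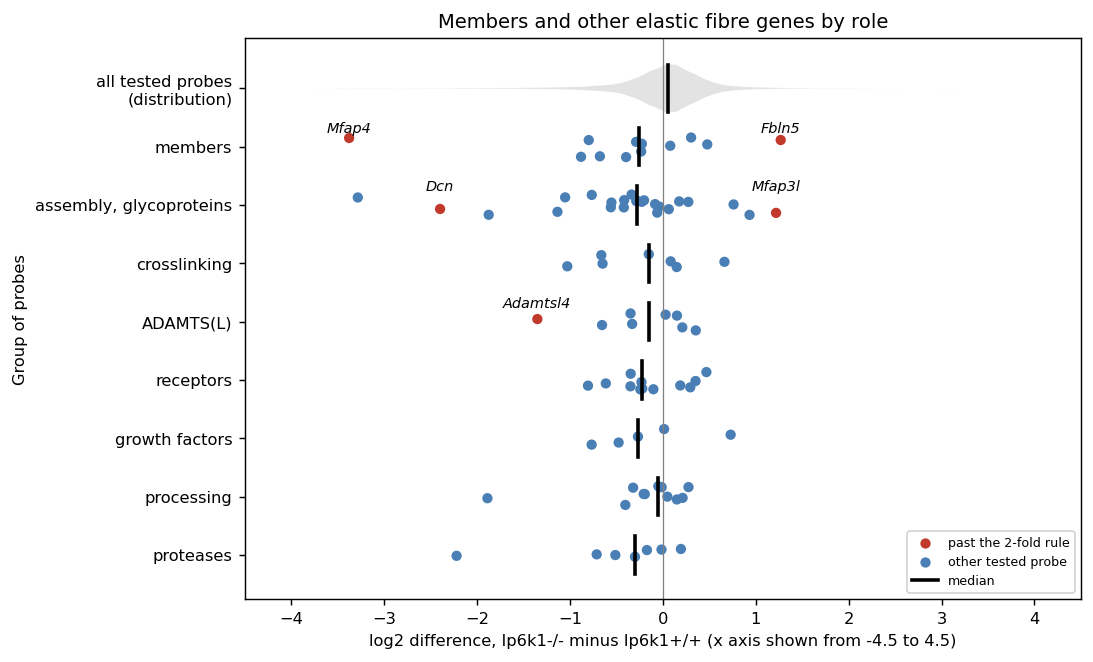
Log2 difference between Ip6k1-/- and Ip6k1+/+ MEFs for each tested probe (points) of the members and of the other elastic fibre genes by role, with group medians as black bars and the distribution over all 21571 tested probes in grey. The member median is -0.26 and the median of all tested probes 0.05, and red points, labelled by gene, are past the fold rule.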

How the data were processed

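RNA of 4 MEF lines, 2 of each Ip6k1 genotype, was read on 1 single-colour Agilent array a line. The authors deposited each spot's intensity on a linear scale, background-corrected by Feature Extraction 10.5.1.1, with flags for saturation, outliers and signal well above background. They also deposited a log2 value table, which differed from the values used here by a constant per array (0.084 to 0.111, median deviation around it 0.0025), and so carries no centring of genes. Probe positions are those the files give, on mm9.

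From the intensity, log2 was taken and the array's 75th percentile over 43379 non-control spots was subtracted. Spots with an outlier flag (96 to 133 an array) were left out, saturated spots were kept and spots of a probe were averaged, with each probe of a gene reported separately. Probes detected well above background in both lines of 1 genotype or of both (21571 of 41174) were fitted with limma 3.58.1 (lmFit, eBayes with a variance trend, R 4.3.3), and p-values were adjusted over all of these probes by the Benjamini-Hochberg method. The steps were run on simulated data with independent noise drawn with limma's moderated spread, without the deviations that real lines of the same number share. A first simulation, with each probe's observed SD, had failed its threshold for the recovery of large changes. The simulation therefore does not show how well changes are found in these 4 lines. Precision is limited by the number of arrays, and p-values measure only the spread between the lines.

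The members, the other gene lists, the markers and the fold rule were chosen with earlier results of these data known. Named genes were every member and, of the list of 67, those past the fold rule and the largest difference of each role among probes well above background on all 4 arrays. Alternatives were the background correction (normexp, offset 16), normalization, filter, source of values, outlier spots, variance model, the methods' t-test, the fold rule, a replicate block and leaving out each line. Promoter and motif windows are from RefSeq tables of GRCm38.p6.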

Additional observations from a re-analysis of the deposited data

How the results depend on the processing

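Of 170 values recomputed under another processing step or test 15 moved, and of 88 with 1 line left out 35 moved, where a count had to change by over 1.5 times, a median by more than the median SD of 2 lines and a probe's difference to change sign, so that large changes of size alone are not among them. No difference was called, so none could reverse. With a line left out the member median lay between -0.38 and 0.03 (above 0 without Ip6k1+/+ line 1), and the pathway list median between -0.35 and 0.16 (above 0 without Ip6k1-/- line 2). The member median was -0.34 over probes measured in every line and not saturated throughout, an alternative added after the data were seen. Member probes past the fold rule upwards numbered 0 with normexp and 0 with the filter of all 4 arrays, instead of 1, and 1 to 2 with a line left out. Those past it downwards numbered 2 to 4 with a line left out. These counts include Mfap5 upwards without Ip6k1-/- line 2 and Eln downwards without Ip6k1+/+ line 2, both not tested with all lines. In the pathway list, probes past the rule downwards numbered 1 with normexp, 5 with no filter and 9 by the mean difference alone, instead of 2, and 6 to 20 with a line left out. Those past it upwards numbered 0 with normexp and 2 with no filter, instead of 1, and 0 to 11 with a line left out. By definition, the mean difference alone drops the condition on each line, and no filter adds dim probes. With an Ip6k1-/- line left out, only 1 line has to meet the rule. What else moved the counts was not tested. Over all tested probes, the fold rule gave 404 lower and 229 higher, and 266 and 78 with normexp, 949 and 404 with no filter, 241 and 122 with the filter of all 4 arrays, and 864 to 1338 lower and 271 to 1322 higher with a line left out. The median over all probes was 0.10 with median centring and 0.19 with no filter, instead of 0.05, so that member differences are to be read relative to it.

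With the replicate block (line number as a term beside genotype), 0 member probes were called by limma at an adjusted p of at most 0.05, as without it, the lowest adjusted p among them was 0.194, and 3 instead of 1 had an unadjusted p under 0.05, as had 12 instead of 1 in the pathway list, with 0 called there by adjusted p in either fit. Across tested probes the deviations from the genotype means of lines with the same number correlated at r = 0.48, which is a description over probes of 4 arrays. The labels do not say that lines with the same number share a day or batch, so the block was not used for the results. Eln and Mfap5 were too dim in 1 line of each genotype to be tested with all 4 lines, and Fbln2 was saturated.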
